A study of Mus musculus with 33 samples.

Results

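The NMDA receptor is a glutamate-gated ion channel, and the 7 genes that encode its subunits in the mouse are Grin1, Grin2a, Grin2b, Grin2c, Grin2d, Grin3a and Grin3b. They were taken by symbol from both deposited count tables, which hold 23366 genes each, and all 7 had a row in each table. Frontal cortex RNA-Seq was available from 33 C57BL/6 offspring of about 1 month, 16 labelled female and 17 labelled male. Their dams, and later the dams with their pups, breathed filtered air or the aerosol of a commercial tobacco-flavored e-cigarette in whole-body chambers, and 1 pup per litter was used. The female run held 6 air, 5 nicotine (13 to 16 mg/mL in the liquid) and 5 no nicotine libraries. The male run held 6 air, 6 nicotine (the same liquid) and 5 no nicotine libraries. Strain, tissue and age were shared by all groups, and both exposed groups also received the carrier liquid and flavoring, so the air group differs from them in more than nicotine. Females and males were prepared and sequenced apart, so sex and sequencing run cannot be told apart, and groups were compared within a run.

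A working NMDA receptor needs GluN1, the product of Grin1, which carries the site for the co-agonist glycine or D-serine. GluN1 assembles with GluN2 subunits (Grin2a to Grin2d), which bind glutamate and set how long the channel stays open, or with the glycine-binding GluN3 subunits (Grin3a, Grin3b), which lower calcium entry. In the forebrain GluN2B dominates around birth and GluN2A is added as the cortex matures, while GluN2C is best known from cerebellar granule cells and GluN2D from interneurons and the early brain. Calcium that enters through the channel drives synaptic plasticity.

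The 7 genes are related in sequence, so it was checked whether reads of 1 member could be counted for another. The 50 coding bases printed here for Grin1, Grin2c, Grin3a and Grin3b, 1 read length, start at the most conserved point of the channel, the end of the third membrane segment. They show how far members of the GluN1, GluN2 and GluN3 groups differ where they are most alike. Capitals mark the 24 bases that are the same in these 4 members. Coordinates are on mm9, the build of the deposited files, with sequences from the GENCODE M1 transcripts of that build, and each stretch lies within 1 coding exon of the longest transcript.
Grin1, chr2:25152693-25152742, minus strand, exon 15 of 21: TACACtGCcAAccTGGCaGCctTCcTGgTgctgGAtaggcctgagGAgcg
Grin2c, chr11:115115037-115115086, minus strand, exon 11 of 15: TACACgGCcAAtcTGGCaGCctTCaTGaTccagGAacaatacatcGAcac
Grin3a, chr4:49783316-49783365, minus strand, exon 3 of 9: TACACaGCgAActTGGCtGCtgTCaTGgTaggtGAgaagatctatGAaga
Grin3b, chr10:79437384-79437433, plus strand, exon 3 of 9: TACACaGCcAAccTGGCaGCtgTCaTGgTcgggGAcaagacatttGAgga

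Between these stretches, Grin3a and Grin3b differed at 10 bases, Grin1 and Grin2c at 19, and Grin2c and Grin3a at 23. The authors allowed 2 mismatches when mapping. Of all windows of read length in the transcripts of the 7 members, between 0% (Grin1, Grin2a, Grin2c, Grin2d) and 0.729% (Grin3b) occurred base for base in transcripts of another gene. An overlap with a gene on the other strand covered 13.5% of the exonic bases of Grin1 (E130003G02Rik) and 32.1% of those of Grin3b (ORF61). It is not given in the sources used here whether counting used the strand, so reads in these stretches cannot be assigned with certainty. E130003G02Rik itself had 93 to 210 counts per library, against 4706 to 8698 for Grin1.

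Total counts ran from 19150562 to 27513174 per library in the female run and from 17845672 to 24787955 in the male run. Levels are given as CPM, the count of a gene divided by its library's total count and put on a common scale with TMM within a run, and a gene was called changed at a Benjamini-Hochberg adjusted p below 0.01 in edgeR's quasi-likelihood test. All 7 members passed the filter on low counts in both runs, in which 15158 (female) and 15293 (male) genes were tested. The library labelled male nicotine replicate 21 had 4632 Xist counts and 1 count over the Y-linked genes, which goes against its sex label. The edgeR fold changes, the differences between runs and the Grin2a to Grin2b ratios were therefore also computed without it. Group levels, marker sums and correlations of the males include it. All 12 marker genes of cortical glutamatergic neurons were detected in every library, and 2 to 5 of the 6 markers of cerebellar granule neurons were under 1 CPM in each library, with summed levels of 7.25 to 28.0 CPM.

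In both runs, the mean levels of Grin2a and Grin2b were highest in air, and those of the no nicotine groups were 0.474 to 0.571 of them by the fit. Grin1 was lower by 20.1% in the females and by 11.6% in the males without nicotine. Grin2c, Grin2d, Grin3a and Grin3b did not pass the test in any comparison with air. Of the 7 members, 3 fell in the no nicotine females (Grin1, Grin2a, Grin2b), where 12.1% of all genes tested were called, 7.03% lower and 5.03% higher. In the no nicotine males 3 fell as well (Grin1, Grin2a, Grin2b), beside 13.6% of all genes called, 7.47% lower and 6.15% higher. In the nicotine females 1 fell (Grin2a), where 4.29% of genes were called, 2.32% lower and 1.98% higher. There Grin1 was a second call without air replicate 1 or nicotine replicate 3, and Grin2b without nicotine replicate 5. No member passed in the nicotine males by edgeR or limma-voom, 4 had an unadjusted p below 0.05, and DESeq2 called 1 (Grin2b). There edgeR called 0% of genes, 7.38% were lower and 7.02% higher at an unadjusted p below 0.05, and DESeq2 called 159 genes.

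**Figure D1:**
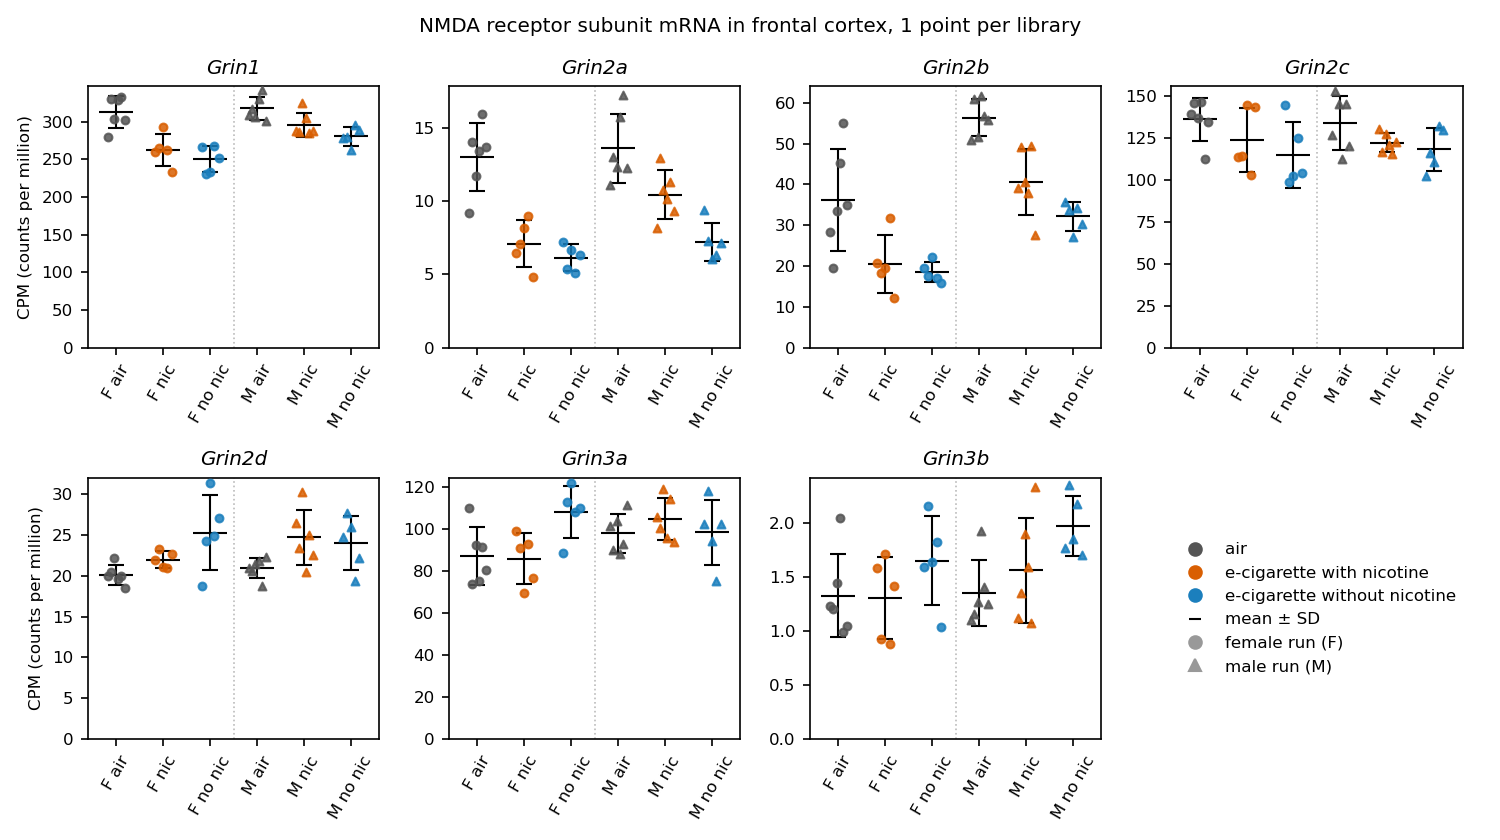
CPM (TMM-scaled, axes from 0) of each NMDA receptor subunit gene in every library, by treatment group, with circles for the female and triangles for the male run and black bars for the group mean ± SD. For Grin2a every library of the no nicotine groups lies below every air library of its run, while the groups overlap for Grin2c, Grin2d, Grin3a and Grin3b.

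Grin1, the obligatory subunit, was the member with the most reads. In air females it ran from 280.0 to 333 CPM with a median of 316. The nicotine females had 259, 266, 293, 262 and 233 CPM and the no nicotine females 266, 231, 234, 268 and 251 CPM. All 5 no nicotine libraries and 4 of the 5 nicotine libraries lay below the lowest air library. The fall in no nicotine females was small but larger than the spread (log2 fold change -0.32 ± 0.062 SE, adjusted p = 0.00177 by edgeR). The nicotine females missed the threshold by edgeR (-0.25 ± 0.062, adjusted p = 0.0134) but were called by DESeq2 and limma-voom. In males, the air libraries ran from 301 to 342 CPM (median 313) and the nicotine libraries from 284 to 324 CPM (median 288). The no nicotine males had 278, 279.5, 263, 296 and 288 CPM, all below the air range. Their fall passed the test (-0.18 ± 0.045, adjusted p = 0.00673 by edgeR), but not when any one of 6 libraries was left out (air replicates 31, 37 and 38, no nicotine replicates 2, 3 and 4; adjusted p up to 0.0208). The nicotine males differed from air by -0.10 ± 0.042 (adjusted p = 0.266).

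Grin2a encodes GluN2A, the subunit that gives mature synaptic receptors their fast decay. Air females had 9.22 to 16.0 CPM with a median of 13.6. The nicotine females had 6.48, 7.10, 8.18, 8.99 and 4.81 CPM, and the no nicotine females 7.25, 5.40, 6.71, 5.09 and 6.36 CPM. No exposed female library reached the lowest air library, a lack of overlap that 3.60% of all genes showed on the lower side with nicotine and 6.27% without. Grin2a fell to 0.545 of the air level with nicotine (log2 fold change -0.88 ± 0.15 SE, adjusted p = 0.00216 by edgeR) and to 0.474 without (-1.08 ± 0.15, adjusted p = 0.000802). The male air libraries ran from 11.1 to 17.3 CPM (median 12.7) and the male nicotine libraries from 8.16 to 13.0 CPM (median 10.5), with 4 of 6 below the air range. The no nicotine males had 9.39, 7.29, 6.04, 6.33 and 7.15 CPM, all below the air range, as 6.94% of all genes were. Grin2a fell in them to 0.530 of the air level (-0.91 ± 0.14, adjusted p = 0.000141 by edgeR), while the nicotine males did not pass (-0.38 ± 0.13, adjusted p = 0.162). Grin2a rests on 110 to 407 counts per library.

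Grin2b encodes GluN2B, the subunit of the immature forebrain and of receptors outside the synapse, with slow decay. Its air females were widely spread, from 19.6 CPM (replicate 2) to 54.9 CPM (replicate 5) with a median of 34.2. The nicotine females had 20.7, 18.2, 19.5, 31.8 and 12.2 CPM and the no nicotine females 19.56, 17.56, 22.15, 16.996 and 15.86 CPM. The exposed females overlapped with air through the low air library and, with nicotine, replicate 5. Grin2b fell without nicotine (log2 fold change -0.97 ± 0.23 SE, adjusted p = 0.00636 by edgeR) and missed the threshold with nicotine (-0.82 ± 0.23, adjusted p = 0.0286). The female call was lost on leaving out any one of air replicates 4, 5 and 6 or no nicotine replicates 2, 3, 4 and 5, with adjusted p up to 0.0200 and log2 fold changes of -0.81 to -1.10 over all 16 such fits. In males the groups were tighter: 50.8 to 61.6 CPM in air (median 56.3) and 27.6 to 49.5 CPM with nicotine (median 39.8). The no nicotine males had 35.6, 33.8, 27.0, 34.1 and 30.3 CPM. Every exposed male library lay below every air library, which 1.24% of all genes did with nicotine and 6.94% without. The fall passed without nicotine (-0.81 ± 0.12, adjusted p = 9.95e-05 by edgeR) and not with nicotine (-0.47 ± 0.11, adjusted p = 0.0649 by edgeR, 0.00381 by DESeq2). Without male nicotine replicate 21 the latter value was -0.54, with an adjusted p of 0.0750 by edgeR.

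**Figure D2:**
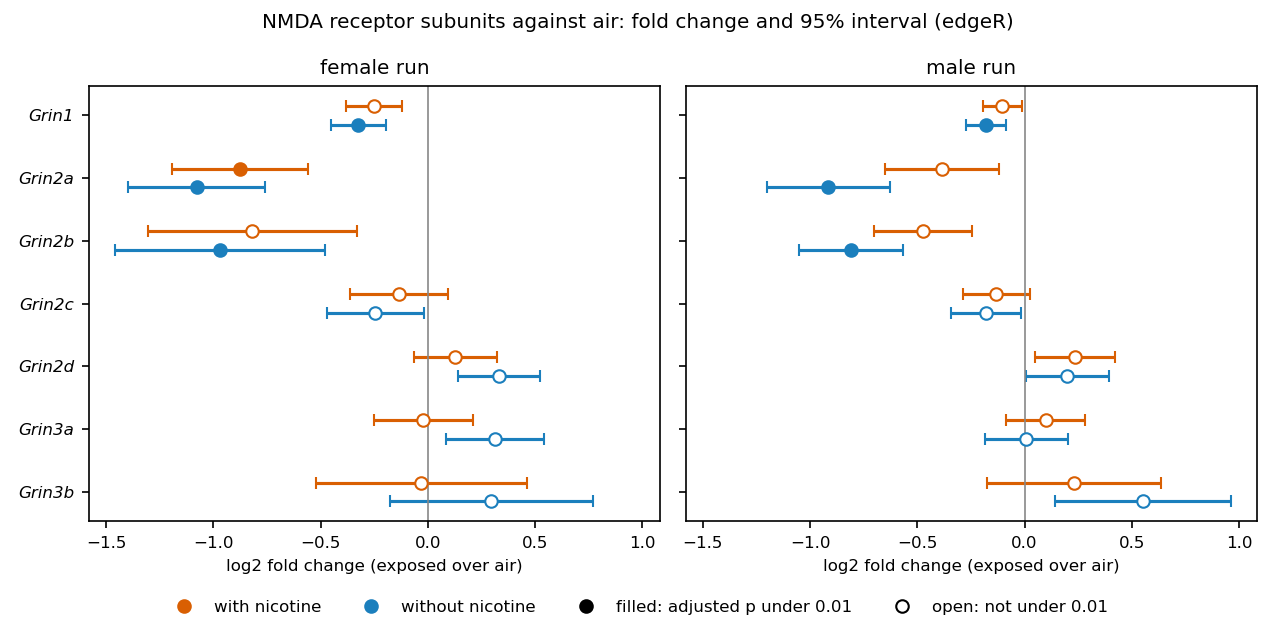
Log2 fold change over air (x axis) of each subunit gene with its 95% interval from edgeR, in the female and male run, orange with and blue without nicotine. Filled points, with an adjusted p under 0.01, are found for Grin1, Grin2a and Grin2b alone, all to the left of 0.

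The other GluN2 genes were not called against air by edgeR with all libraries, although the fold changes of Grin2c were also below 0. Grin2c, which encodes the magnesium-tolerant GluN2C, had 113 to 147 CPM in air females, 103 to 145 CPM with nicotine and 98.6 to 145 CPM without. In males it had 113 to 153, 115 to 130 and 102 to 132 CPM. Its log2 fold changes against air were -0.13 ± 0.11 and -0.24 ± 0.11 in females with and without nicotine, and -0.13 ± 0.074 and -0.18 ± 0.077 in males, with adjusted p of 0.0982 to 0.457 by edgeR. Grin2d encodes GluN2D, which forms slow receptors on interneurons. It had 18.5 to 22.2 CPM in air females. The nicotine females had 21.89, 23.27, 21.03, 20.97 and 22.72 CPM and the no nicotine females 18.8, 24.3, 31.4, 24.9 and 27.1 CPM, of which 4 of 5 lay above the air range. Its log2 fold change without nicotine was 0.33 ± 0.091, with adjusted p of 0.0139 by edgeR, 0.00509 by DESeq2 and 0.00381 by limma-voom. Female no nicotine replicate 1 was the library within the air range, and without it the log2 fold change was 0.41 with an adjusted p of 0.000400 by edgeR. The males gave 18.8 to 22.3 CPM in air, 20.5 to 30.3 with nicotine and 19.4 to 27.7 without, with log2 fold changes of 0.24 ± 0.089 (adjusted p = 0.225) and 0.20 ± 0.093 (adjusted p = 0.130).

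The GluN3 genes did not pass either. Grin3a, which encodes a subunit of juvenile synapses, ran from 73.7 to 110 CPM in air females and from 69.8 to 99.1 CPM in nicotine females, with 88.4 to 122 CPM in no nicotine females. The last of these was higher by 0.31 ± 0.11 on the log2 scale (adjusted p = 0.0441 by edgeR) with 2 of 5 libraries above the air range, against 0.0088 ± 0.092 in no nicotine males (adjusted p = 0.959). Grin3b, best known from motor neurons, was near the limit of detection with 18 to 58 counts per library, or 0.877 to 2.34 CPM. Its largest log2 fold change was 0.55 ± 0.20 in no nicotine males (adjusted p = 0.0460 by edgeR), where 2 of 5 libraries lay above the air range. Without male nicotine replicate 21, the nicotine males had log2 fold changes against air of -0.092 for Grin1, -0.41 for Grin2a, -0.12 for Grin2c, 0.23 for Grin2d, 0.073 for Grin3a and 0.32 for Grin3b, and again no member passed by edgeR (adjusted p of 0.0750 or more, Grin2b included).

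Nicotine and no nicotine libraries were also compared directly. In females no member passed by edgeR, DESeq2 or limma-voom, and 2 (Grin2d, Grin3a) had an unadjusted p below 0.05, where 0% of all genes were called and 4.68% were lower and 3.68% higher at that p. In males no member passed by edgeR or limma-voom, where 0.248% of genes were called, and 2 (Grin2a, Grin2b) had an unadjusted p below 0.05, as did 9.85% of all genes on the lower and 10.2% on the higher side. DESeq2 called 1 of them there, Grin2a. Male Grin2a was higher with nicotine than without by 0.53 ± 0.14 on the log2 scale (adjusted p = 0.0403 by edgeR, 0.00700 by DESeq2), with 4 of 6 libraries above the no nicotine range. Leaving out replicate 21 gave 0.50 with an adjusted p of 0.0834 by edgeR. In females the same difference was 0.20 ± 0.16 (95% interval -0.14 to 0.55, adjusted p = 0.759).

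Whether the runs differed in these changes was tested in 1 fit of all 33 libraries. No member differed (adjusted p of 0.725 or more over 15105 genes by edgeR), and Grin2a with nicotine and Grin3a without had an unadjusted p below 0.05. With nicotine, the change of Grin2a was lower in females than in males by 0.48 (95% interval -0.90 to -0.069, adjusted p = 0.725 by edgeR), and by 0.46 without male nicotine replicate 21 (adjusted p = 0.802). Without nicotine, the change of Grin3a was 0.31 higher in females (95% interval 0.0036 to 0.62, adjusted p = 0.945 by edgeR). A smaller Grin2a response to nicotine in males is therefore not shown by these data.

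The balance of Grin2a to Grin2b, which is known to shift from Grin2b to Grin2a as the cortex matures, was read as the log2 ratio of their counts, which needs no normalization. It was -1.41 ± 0.49 (SD, n = 6) in air females, -1.49 ± 0.25 (n = 5) with nicotine and -1.58 ± 0.19 (n = 5) without. Air males had -2.06 ± 0.19 (n = 6), nicotine males -1.95 ± 0.24 (n = 6) and no nicotine males -2.16 ± 0.19 (n = 5). No difference within a run passed an exact two-sided permutation test (differences of -0.17 to 0.22, adjusted p of 0.753 to 0.879 over 6 comparisons, smallest possible unadjusted p 0.00216 for 6 against 5 libraries). Without male nicotine replicate 21, the ratio of nicotine males differed by 0.15 from air and by 0.25 from no nicotine (adjusted p = 0.753 and 0.667, exact permutation test). A shift between Grin2a and Grin2b was thus not detectable with these libraries. Within groups their levels moved together (Pearson r of 0.60 over 16 female and 0.59 over 17 male libraries, on log2 CPM centred on the group mean), as did those of Grin2d and Grin3a (0.48 and 0.76). The libraries differed in depth, how alike their dissection was is not known, and the correlations are descriptive.

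Levels of different genes can be set side by side only per length, as CPM per kb of the union of exons. In air females, Grin1 had the highest level (32.3 ± 2.19 CPM per kb, SD, n = 6), followed by Grin2c (27.0 ± 2.496), Grin3a (5.52 ± 0.87), Grin2b (4.41 ± 1.52), Grin2d (3.43 ± 0.21), Grin2a (2.46 ± 0.44) and Grin3b (0.402 ± 0.116). Neighbours overlapped in range for Grin1 and Grin2c, Grin3a and Grin2b, and Grin2b and Grin2d. Air males gave the order Grin1 (32.8 ± 1.61), Grin2c (26.6 ± 3.21), Grin2b (6.89 ± 0.56), Grin3a (6.21 ± 0.58), Grin2d (3.58 ± 0.21), Grin2a (2.58 ± 0.45) and Grin3b (0.409 ± 0.091), with overlap between Grin2b and Grin3a and between Grin2d and Grin2a. In the no nicotine libraries of both runs Grin2d stood above Grin2b (4.31 against 2.25 CPM per kb in females, without overlap, and 4.10 against 3.93 in males, with overlap). The same order was found in nicotine females (3.75 against 2.51), while nicotine males had 4.22 against 4.97, both with overlap. By coding length, an alternative chosen after seeing the data, the order in no nicotine males was reversed (Grin2d 5.94, Grin2b 7.23). In no nicotine females the 2 then overlapped (Grin2d 6.26, Grin2b 4.14). By that length Grin3a also overlapped Grin2c in air (25.5 against 35.4 in females, 28.6 against 34.9 in males). In no nicotine females Grin3a then stood above Grin2c, with overlap (31.6 against 29.9). Of the GluN2 level scaled by exon union, Grin2c made up 72.3% ± 5.08 in air females and 66.9% ± 3.37 in air males. These shares were not computed by the other lengths. Levels and shares depend on the transcript models, and the models behind the authors' counts are not given in the sources used here. Scaled by its longest transcript instead, Grin1 had 73.2 CPM per kb in air females against 27.8 for Grin2c, and air males then had Grin3a (13.1) above Grin2b (7.52).

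**Figure D3:**
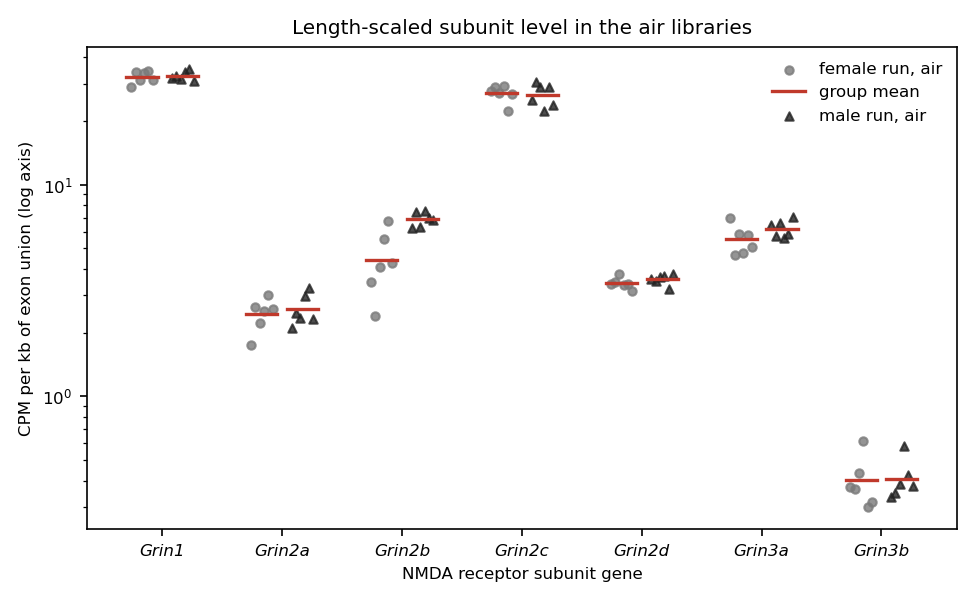
CPM per kb of exon union on a log axis for the 7 subunit genes in the 6 air libraries of each run (circles female, triangles male), with red lines for the group means. On this scale Grin1 and Grin2c lie far above the other members and Grin3b lies below 1.

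The genes that act with the receptor were counted in lists by role, to be read against the shares of all genes called in no nicotine libraries (females 7.03% lower and 5.03% higher, males 7.47% lower and 6.15% higher). In nicotine females these shares were 2.32% lower and 1.98% higher. Over the fits that leave out 1 library, 226 to 930 of all genes were called in nicotine females and 823 to 2505 in no nicotine females. In no nicotine males the range was 1521 to 2174. Glycine and D-serine supply held 11 genes tested. In the no nicotine libraries of both runs 1 of them fell, Srr, which makes D-serine, and 2 rose, Slc6a9 and Slc7a10, the transporters that clear or exchange glycine and D-serine. The 1 of 11 that fell is near the share of all genes. Slc6a9 rose from 78.1 ± 8.73 (SD, n = 6) to 139 ± 22.1 CPM (n = 5) in no nicotine females (log2 fold change 0.83 ± 0.12 SE, adjusted p = 0.000841 by edgeR) and from 80.2 ± 6.79 to 129 ± 18.5 CPM in no nicotine males (0.69 ± 0.092, adjusted p = 5.83e-05). Srr fell by 0.27 and 0.19 (adjusted p = 0.00244 and 0.00326), and Slc7a10 rose by 0.41 and 0.46 (adjusted p = 0.00269 and 0.000102). Of the 11 genes, Slc6a9 alone was called in nicotine females (0.60 ± 0.12, adjusted p = 0.00546), and no gene of the list was called there without any one of air replicates 2, 4, 5 and 6 or nicotine replicates 1, 2 and 6, and 2 without air replicate 1. The median log2 fold change of the list was 0.035 in no nicotine females and 0.055 in no nicotine males, beside 0.0092 and 0.016 over all genes tested. Without female no nicotine replicate 3, 1 gene rose in females, and without replicate 1, 2 fell. Srr was not called in males without no nicotine replicate 3 or 4, and 2 genes fell there without replicate 7.

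Glutamate supply, vesicle loading and uptake held 8 genes, of which 2 fell and 1 rose in the no nicotine libraries of each run, beside 7.03% (female) and 7.47% (male) of all genes lower and 5.03% and 6.15% higher. Slc17a7, the vesicular transporter of cortical neurons, fell by 0.86 in females and 1.03 in males (adjusted p = 0.00335 and 7.72e-05 by edgeR), and Slc17a8, a vesicular transporter of other cell types, rose by 0.65 and 0.70 (adjusted p = 0.00331 and 0.00164). The median was -0.081 in females and 0.0031 in males. In females 1 gene fell without no nicotine replicate 3 or 5, Slc17a8 was not called without no nicotine replicate 2, and 2 genes rose without nicotine replicate 3. In nicotine females Slc17a8 rose by 0.81 (adjusted p = 0.00200 by edgeR).

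Of 20 genes that anchor or carry NMDA receptors at the synapse, 8 fell in no nicotine females (Dlg3, Dlgap1, Dlgap2, Dlgap4, Lin7a, Pacsin1, Shank1, Shank2) and none rose by edgeR, with 9 falling in no nicotine males (the same 8 and Lin7c), beside 7.03% and 7.47% of all genes. The scaffold gene Dlgap1 went from 622 ± 48.0 to 416 ± 77.1 CPM in females (-0.58 ± 0.10, adjusted p = 0.00116 by edgeR) and from 648 ± 44.7 to 437 ± 52.6 CPM in males (-0.57 ± 0.068, adjusted p = 2.53e-05). Lin7a fell by 0.28 and 0.31 (adjusted p = 0.00114 and 0.000234), and Pacsin1, an endocytic adaptor, fell by 0.29 and 0.27 (adjusted p = 0.00190 and 0.000145). Lin7a also fell by 0.25 in nicotine females (adjusted p = 0.00356), the 1 call of the list there. That count was 0 without air replicate 6 or nicotine replicates 1, 2 or 6, and 6, 5 and 4 without nicotine replicate 3, no nicotine replicate 1 and no nicotine replicate 2. Of all genes, 226 to 283 were called in the fits with a count of 0, and 930, 869 and 709 in the others. The median was -0.26 in no nicotine females and -0.13 in no nicotine males. The female count was 5 without air replicate 6 or no nicotine replicates 2 or 3.

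Among 19 tested genes of calcium signalling downstream of the receptor, 7 fell in no nicotine females, and 8 fell and 1 (Fyn, a kinase of GluN2 subunits) rose in no nicotine males, beside 7.03% of all genes lower in females and 7.47% lower and 6.15% higher in males. Calcineurin subunit Ppp3cb fell by 0.27 and 0.33 (adjusted p = 0.00468 and 0.000157 by edgeR), and Rasgrf2, a calcium-dependent Ras activator that is also 1 of the 12 cortical neuron markers used here, by 0.30 and 0.55 (adjusted p = 0.00546 and 0.000656). Ppp3r1 and Camk4 fell in females (by 0.39 and 0.40, adjusted p = 0.00341 and 0.00423), with values of -0.28 and -0.24 in males (adjusted p = 0.0163 and 0.228). Rasgrf2 was the 1 gene of the list that fell in nicotine females (-0.46 ± 0.071, adjusted p = 0.00107), and without nicotine replicate 3 the count was 3. Fyn was not called in males without no nicotine replicate 4. The median was -0.24 in no nicotine females and -0.17 in no nicotine males. The female count rested on single libraries: by edgeR it was 0 without no nicotine replicates 2 or 3, 2 without air replicates 4 or 6, 3 without air replicate 2 or no nicotine replicate 5 and 4 without air replicate 5.

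Of the 9 AMPA and kainate receptor subunits, the fast glutamate receptors of the same synapses, 2 fell in no nicotine females (Gria3, Grik5) and 2 in no nicotine males (Gria2, Gria3), beside 7.03% and 7.47% of all genes, with medians of -0.077 and 0.013. The female count was 1 without any one of the 6 air libraries, nicotine replicate 1 or no nicotine replicates 2, 3 or 5, and the male count 1 without air replicates 37, 38 or 39 or no nicotine replicates 3, 4 or 5. Without female no nicotine replicate 1, 1 gene of the list rose. Gria3 fell by 0.47 and 0.39 (adjusted p = 0.00151 and 0.000684 by edgeR). Grik5 fell by 0.31 in females (adjusted p = 0.00795) and had -0.18 in males (adjusted p = 0.0354). Gria2, the calcium-limiting AMPA subunit, fell by 0.18 in males (adjusted p = 0.00715) and had -0.25 in females (adjusted p = 0.0222). In nicotine females no AMPA or kainate gene was called by edgeR. In nicotine males edgeR called no gene of any list.

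Markers of some other cells and regions moved with the groups. Those of astrocytes (7 genes), microglia (6), endothelium (6) and olfactory bulb (6, of which 5 were tested in females) had no gene called by edgeR in any comparison, with medians in no nicotine libraries of 0.090, -0.046, -0.048 and -0.16 in females and 0.094, -0.041, -0.15 and -0.31 in males. The 12 cortical glutamatergic markers (Slc17a7, Tbr1 and others, none at 0 in any library) summed to 3606 to 4554 CPM in air females, 2461 to 3250 CPM with nicotine and 1581 to 3370 CPM without. In males the sums were 3384 to 4006, 2470 to 3344 and 1415 to 2476 CPM. Of these 12, 9 fell and 1 (Foxp2) rose in the no nicotine libraries of each run. Of all genes, 7.03% (female) and 7.47% (male) were called lower there, and 5.03% and 6.15% higher. In nicotine females 2.32% of all genes were called lower and 1.98% higher. Markers of basal forebrain cholinergic neurons, all 7 of which rose in nicotine females and in no nicotine females and males, summed to 20.1 to 79.6 CPM in air females. With nicotine the females had 83.5 to 195 CPM and without it 109 to 289 CPM. The males had 34.9 to 82.0 CPM in air, 94.5 to 144 with nicotine and 112 to 238 without. Striatal projection neuron markers, 10 in all, summed to 1133 to 2752 CPM in air females, 2512 to 3427 CPM with nicotine and 2182 to 2758 CPM without. Male striatal sums were 1576 to 2766, 1760 to 3516 and 1881 to 5036 CPM. The 8 GABAergic interneuron markers summed to 924 to 1209 CPM in air females, 1190 to 1477 CPM with nicotine and 1227 to 1654 CPM without. Male interneuron sums were 1019 to 1261, 1193 to 1427 and 1335 to 1921 CPM. Without nicotine, 4 of the 8 rose and 2 fell in females, and 3 rose and 1 fell in males. The 6 oligodendrocyte markers, which all rose in the no nicotine groups and in nicotine females, summed to 7894 to 9477 CPM in air females. With nicotine the females had 12985 to 16553 CPM and without it 10610 to 15878 CPM. The males had 9068 to 11087 CPM in air, 9323 to 14437 with nicotine and 13261 to 22672 without. Of 5 oligodendrocyte precursor markers, 2 rose in no nicotine females and 3 in no nicotine males. Of 6 thalamus markers, 2 rose in no nicotine females, and 1 rose and 1 fell in no nicotine males. The part of these differences in the levels of the subunits was not tested. A fit was run that took the mean log2 CPM of the cortical markers in each library as a covariate. The summed cortical markers of air libraries (3384 CPM or more) did not overlap those of exposed libraries (3370 CPM or less). That fit therefore cannot separate marker level from exposure in the comparisons with air. In that fit no member was called in any comparison, and of all genes 1 and 0 were called against air in females with and without nicotine and 0 and 14 in males, so the absence of calls is not particular to the members. There Grin2a in no nicotine females had -0.58 (adjusted p = 0.890) and in no nicotine males -0.91 (adjusted p = 0.110). In bulk tissue, fewer cells of a type and less RNA per cell cannot be told apart.

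**Figure D4:**
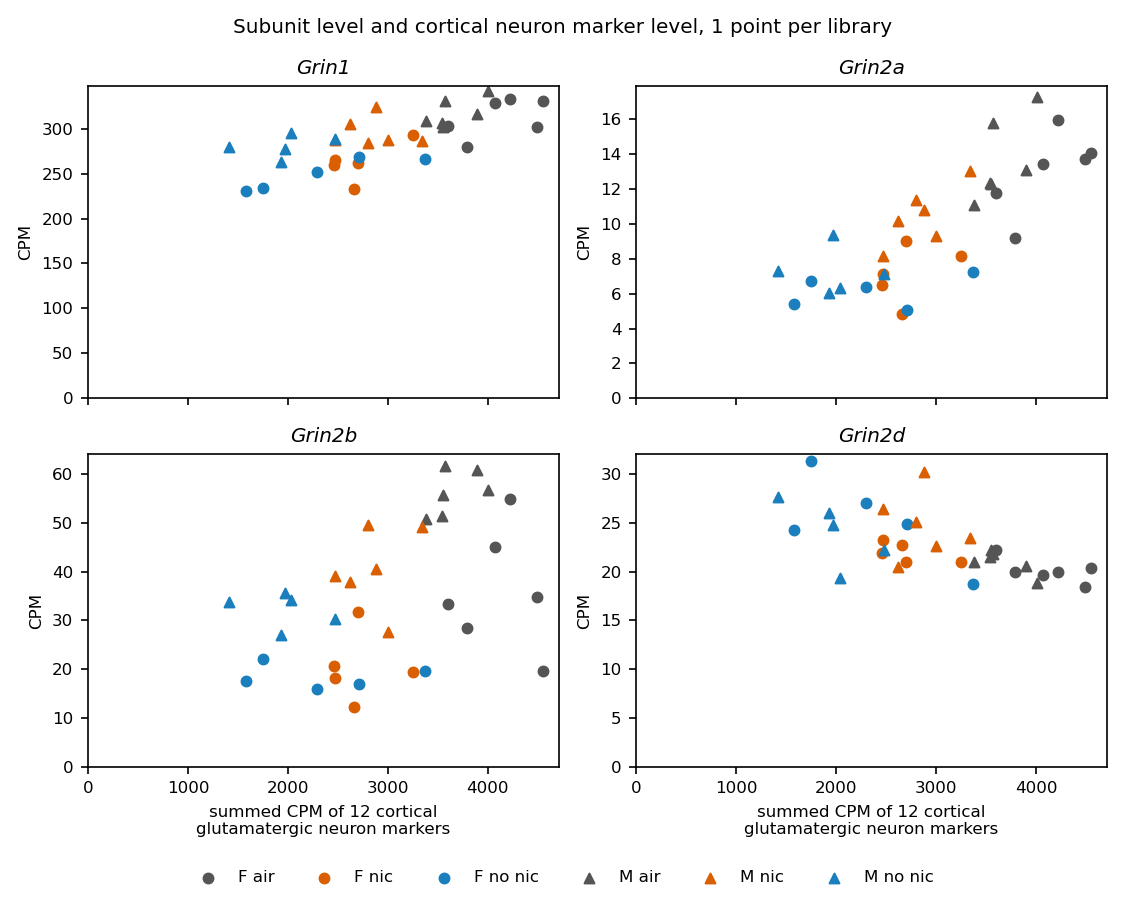
CPM of Grin1, Grin2a, Grin2b and Grin2d (y axes from 0) against the summed CPM of 12 cortical glutamatergic neuron markers (x axis) in every library, colored by treatment, circles for females (F) and triangles for males (M). The air libraries lie at the right, from 3384 CPM upward, and the exposed libraries at or below 3370 CPM, with Grin2a and Grin2b higher at the right and Grin2d at the left.

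The same levels were also set beside transcript length. The mean level of long minus short transcripts (log2) was 0.014 to 0.11 in air females and -0.068 to -0.0060 in no nicotine females, and 0.0022 to 0.079 and -0.11 to -0.023 in the males. With offsets that take out the trend of each library on GC content and length, the called members were 1 in nicotine females, 4 in no nicotine females (with Grin2d), 0 in nicotine males and 3 in no nicotine males. Of all genes, 664, 1841, 0 and 2053 were called in these comparisons with the offsets.

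For each member, the 3 genes of 15105 whose level followed it most closely within groups were found from the mean of the female (16 libraries) and male (17 libraries) Pearson r on log2 CPM centred on the group means. They were Lpcat4 (mean r of 0.91), Mast3 (0.88) and Kctd13 (0.86) for Grin1. For Grin2a they were Frrs1l (0.87), Ptprj (0.86) and Lpgat1 (0.84), where Frrs1l encodes an AMPA receptor assembly factor. Grin2b was followed by Lyst (0.82), Xkr4 (0.82) and Vps13c (0.81). Grin2c had Cox6a1 (0.88), Slc25a23 (0.88) and Sepw1 (0.88), of which Cox6a1 and Slc25a23 encode mitochondrial proteins. Grin2d had Prr24 (0.84), Dzank1 (0.82) and Nrip2 (0.79), and Grin3a had Blcap (0.91), Wdr6 (0.91) and Hap1 (0.90). For the scarce Grin3b the closest were Smim14 (0.65), Ppt2 (0.63) and Snx3 (0.61). No 2 members shared any of these genes, and the correlations are descriptive, over libraries that differed in depth.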

How the data were processed

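Per the labels and the study's methods, the authors sequenced TruSeq libraries as single 50-base reads in 2 runs (female, male), mapped them to the mm9 transcriptome with Bowtie allowing 2 mismatches, removed PCR duplicates with SAMtools and counted reads per gene with HTSeq. The deposited raw counts, which are not normalized, were used, and the authors' size-factor normalized tables were not. One sample per sex was excluded by the authors, and 1 count column that matched no sample was not used here. Genes whose CPM summed over a run reached 5 were tested with edgeR 4.0.16 (R 4.3.3; TMM, quasi-likelihood, 3 groups of a run in 1 fit, prior count 1 for log2 CPM), with Benjamini-Hochberg adjustment over all genes tested and a threshold of 0.01. DESeq2 1.42.0, limma 3.58.1 (voom), other normalizations and filters, covariates and leaving out each library were alternatives. Scripts were tested on simulated data. Lengths and sequences came from GENCODE M1 (mm9). Libraries are separate litters, 5 or 6 per group. The members and gene lists were chosen with earlier results of these data known. Named in the text are all 7 members, of each gene list the 2 genes per run with the smallest p in no nicotine against air, and for each member the 3 genes that follow it most closely. Genes named beyond these were chosen after their values were seen. Some genes and sequences are not reported here.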

Additional observations from a re-analysis of the deposited data

Results flagged for a closer look

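In 3 of 48 groups of 4 or more libraries, 1 library stood apart from the others by Dixon's test at the 95% level, which flags about 1 group in 20 by chance. Grin2c in air females had 113 CPM in replicate 5, with the other 5 libraries at 135 to 147 CPM. Grin3b in air males had 1.93 CPM in replicate 37, with the others at 1.10 to 1.40 CPM, on 25 to 36 counts per library. The log2 ratio of Grin2a to Grin2b counts was -0.48 in air female replicate 2, with the others at -1.78 to -1.34, the library with the lowest Grin2b level of its group.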

How the results depend on the processing

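DESeq2 called 2 members in nicotine females, 4 in no nicotine females, 1 in nicotine males, 3 in no nicotine males and 1 between the exposed male groups, where it called 1319, 2591, 159, 2624 and 456 of all genes. Limma-voom called 2 and 4 in the females with and without nicotine, where it called 1012 and 2585 of all genes. The covariate on cortical markers left 0 members in every comparison by edgeR, where 0 to 14 of all genes were called. Leaving out 1 library gave 1 to 2 called in nicotine females, 2 to 4 in no nicotine females, 0 in nicotine males and 2 to 3 in no nicotine males. Of all genes, these fits called 226 to 930, 823 to 2505, 0 to 2 and 1521 to 2174.

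Same-numbered female libraries did not deviate together (r of -0.273 to 0.266 over 14 pairs, 4 above 0.1), and the male groups share no numbers. With the replicate number as a block, 1 member was called in nicotine females and 2 in no nicotine females, where Grin2b missed the threshold (-0.97, adjusted p = 0.0113 by edgeR), and Grin3b in nicotine females turned to 0.078. Of all genes, 136 and 736 were called with the block, against 651 and 1829 without it. Paired within numbers, the female differences of the Grin2a to Grin2b ratio were -0.14, -0.16 and 0.017 (nicotine against air, no nicotine against air, nicotine against no nicotine).

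The sign changes were in values that were not called. With the cortical covariate, Grin2c turned to 0.037, Grin2d to -0.11 and Grin3b to 0.079 in nicotine females, Grin2d to -0.027 and Grin3a to -0.016 in no nicotine females, and Grin1 to -0.017 between the exposed females. In males it turned Grin3a with nicotine to -0.011, Grin2d and Grin3a without nicotine to -0.14 and -0.25, and Grin2c between the exposed groups to -0.017. In nicotine females limma-voom turned Grin3a to 0.049, and the GC and length offsets, chosen after seeing the data, turned Grin3a to 0.0084 and Grin3b to 0.011. Over the fits that leave out 1 library, Grin3a ran from -0.077 to 0.058 and Grin3b from -0.15 to 0.14 in nicotine females, Grin2b from -0.064 to 0.30 between the exposed females, Grin3a from -0.066 to 0.090 in no nicotine males and Grin2d from -0.029 to 0.096 between the exposed males. The difference between runs ran from -0.057 to 0.062 for Grin2c with nicotine and from -0.28 to 0.0011 for Grin2b without. The Grin2a to Grin2b ratio against air ran from -0.15 to 0.11 in nicotine females and from -0.24 to 0.018 in no nicotine females, highest in both without air replicate 2. The cause of these shifts was not tested. Depth limits the statements on Grin3b (18 to 58 counts per library).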
